A study of Mus musculus with 22 samples.

Results

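Organic ion transporters of the Slco and Slc22a families and the ATP-binding cassette (ABC) transporters were followed in liver mRNA of mice that kept or lost Flcn in hepatocytes, on chow or on a methionine- and choline-deficient (MCD) diet. The members were the genes of the deposited count table with an Slco, Slc22a or Abca, Abcb, Abcc, Abcd or Abcg symbol, together with Slc10a1, Slc51a, Slc51b and Slc47a1. This gave 90 of 55573 genes, of which 61 had a mean of at least 10 counts over all libraries and were tested among 14062 genes. By role, 17 of 19 uptake carriers, 9 of 9 canalicular pumps, 6 of 7 basolateral efflux transporters and 10 of 12 lipid and sterol transporters passed this limit. So did 9 of 9 transporters of peroxisomes, mitochondria and lysosomes and 10 of 34 others.

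Liver RNA came from 22 mice, 1 library per mouse. Cre mice carried Albumin-Cre, expressed in hepatocytes, and intact Flcn, and liver-Flcn-/- mice (labelled FLCN KO) carried the same Cre with both Flcn alleles deleted in those cells. All were C57BL/6 mice, 6 weeks of age when the diets began and 3 months old at the end, after 6 weeks on chow (10% of calories as fat; 6 Cre and 5 FLCN KO mice) or on MCD (5 Cre and 6 FLCN KO mice). Between 13751347 and 21144388 reads per liver were counted on genes, with group medians of 17889283.5 (Cre chow), 19092932 (Cre MCD), 18282455 (FLCN KO chow) and 19039129.5 (FLCN KO MCD). Levels are given as CPM, counts relative to library size, with libraries scaled by edgeR's TMM method. Differences are log2 fold changes ± standard error from edgeR's two-sided quasi-likelihood test on all 4 groups, and a transporter is said to rise or fall at an adjusted p (Benjamini-Hochberg, over all tested genes) under 0.05. Exact permutation tests of log2 CPM between 6 and 5 livers cannot go below p = 0.00216.

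Hepatocytes take bile acids, drugs and other organic ions from the blood through sodium-dependent (Slc10a1) and sodium-independent (Slco, Slc22a) carriers of the basolateral membrane. ABC pumps of the canalicular membrane then move bile acids, phospholipid, sterols and conjugates into bile, and a second set of basolateral transporters returns them to the blood. In cholestatic liver the uptake carriers are known to go down and the basolateral exporters up. Several Slco and Slc22a genes of mouse liver are also known to differ between males and females. Other ABC transporters carry cholesterol and phospholipid out of the cell or work in peroxisomes, mitochondria and lysosomes.

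The deleted gene served as a check of the labels. On chow, Flcn (ENSMUSG00000032633) had between 26.1 and 40.2 CPM (median 31.8) in Cre livers and 24.2, 20, 16.7, 19.4 and 21.8 CPM in FLCN KO livers, without overlap (log2 fold change -0.63 ± 0.17, adjusted p = 0.0249 by edgeR). On MCD it lay at 31.7, 18.2, 39.9, 32.5 and 23.6 CPM in Cre livers and between 17.6 and 32.6 CPM (median 26.6) in FLCN KO livers, which overlapped (log2 fold change -0.16 ± 0.17, adjusted p = 0.567). Counts over a whole gene also hold exons outside a deletion and RNA of cells without Cre, so on MCD they do not check the labels.

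Some libraries stood apart in ways that bear on transporters. The labels give no sex, but Xist and 4 Y-linked genes split the livers into 12 female (3 in each group) and 10 male (3 Cre chow, 2 Cre MCD, 2 FLCN KO chow and 3 FLCN KO MCD): males had 0 to 19 Xist counts and 1906 to 4321 Y-linked counts, females 5411 to 7573 Xist counts and 0 to 675 Y-linked counts. The 5 males on chow (Cre Chow 1, 5 and 6, FLCN KO Chow 1 and 3) are also the 5 chow libraries with the lowest shares of uniquely mapped reads, so on chow sex and mapping cannot be told apart. Among females, Cre MCD 1, FLCN KO Chow 2, FLCN KO MCD 3, FLCN KO Chow 4 and Cre Chow 2 had the most Y-linked counts (675, 451, 224, 214 and 180), against 0 to 51 in the other 7. The 12 skeletal muscle genes examined summed to 2927 CPM in Cre MCD 3, to 142 CPM in Cre MCD 4 and to 65.4 CPM in FLCN KO MCD 3, and to no more than 18.7 CPM in any other liver. Of these genes Myh1 was the most abundant, and none was at 0 in all livers.

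In Cre mice on chow, bile acid carriers were among the most abundant transporters per length of transcript. Slc10a1, the sodium taurocholate cotransporter, had 395 ± 27.4 CPM per kilobase of merged exons (SD, n = 6). Slco1b2, a carrier of bile acids and bilirubin, had 311 ± 64.8 CPM per kilobase. Abcb11, the bile salt export pump, had 171 ± 24.5, and Abcd3, a peroxisomal fatty acid transporter, 110 ± 13.7 CPM per kilobase. Mean ± SD ranges met for Slc10a1 and Slco1b2, and not for Slco1b2 and Abcb11 or for Abcb11 and Abcd3. At the low end, 29 members were not tested, 8 of them with 0 counts in every liver. These 8 include Slc22a2, a kidney cation transporter. Slc51a, the partner subunit of Slc51b, had 46 counts over all 22 livers and at most 6 in 1 of them, and Slco1a5, Slco1a6 and Slco1c1 had 1, 25 and 24.

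The first comparison asked what 6 weeks of MCD did in each genotype. In Cre mice 17 of 61 transporters rose and 26 fell, where 29.3% of all tested genes rose and 28.2% fell. In FLCN KO mice 12 of 61 rose and 26 fell, against 22.5% and 22.5% of all genes. The median log2 fold change of the members was -0.09 in Cre and -0.30 in FLCN KO mice, beside 0.01 and 0.00 over all tested genes. In Cre mice 0 of 17 uptake carriers rose and 11 fell, and 4 of 6 basolateral exporters rose and 2 fell. Without Cre MCD 3, the liver with the muscle RNA, 15 rose and 24 fell in Cre mice. In whole liver, fewer cells of a type and less RNA per cell cannot be told apart. Hepatocyte marker genes, 7 of 8 of which fell on MCD in each genotype, summed to a median of 131050 CPM in Cre chow and 92440 CPM in Cre MCD livers, and to 117680 and 69262 CPM in FLCN KO livers. Albumin was the most abundant of them and none was at 0, and the part of cell composition in the falls was not tested.

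**Figure D1:**
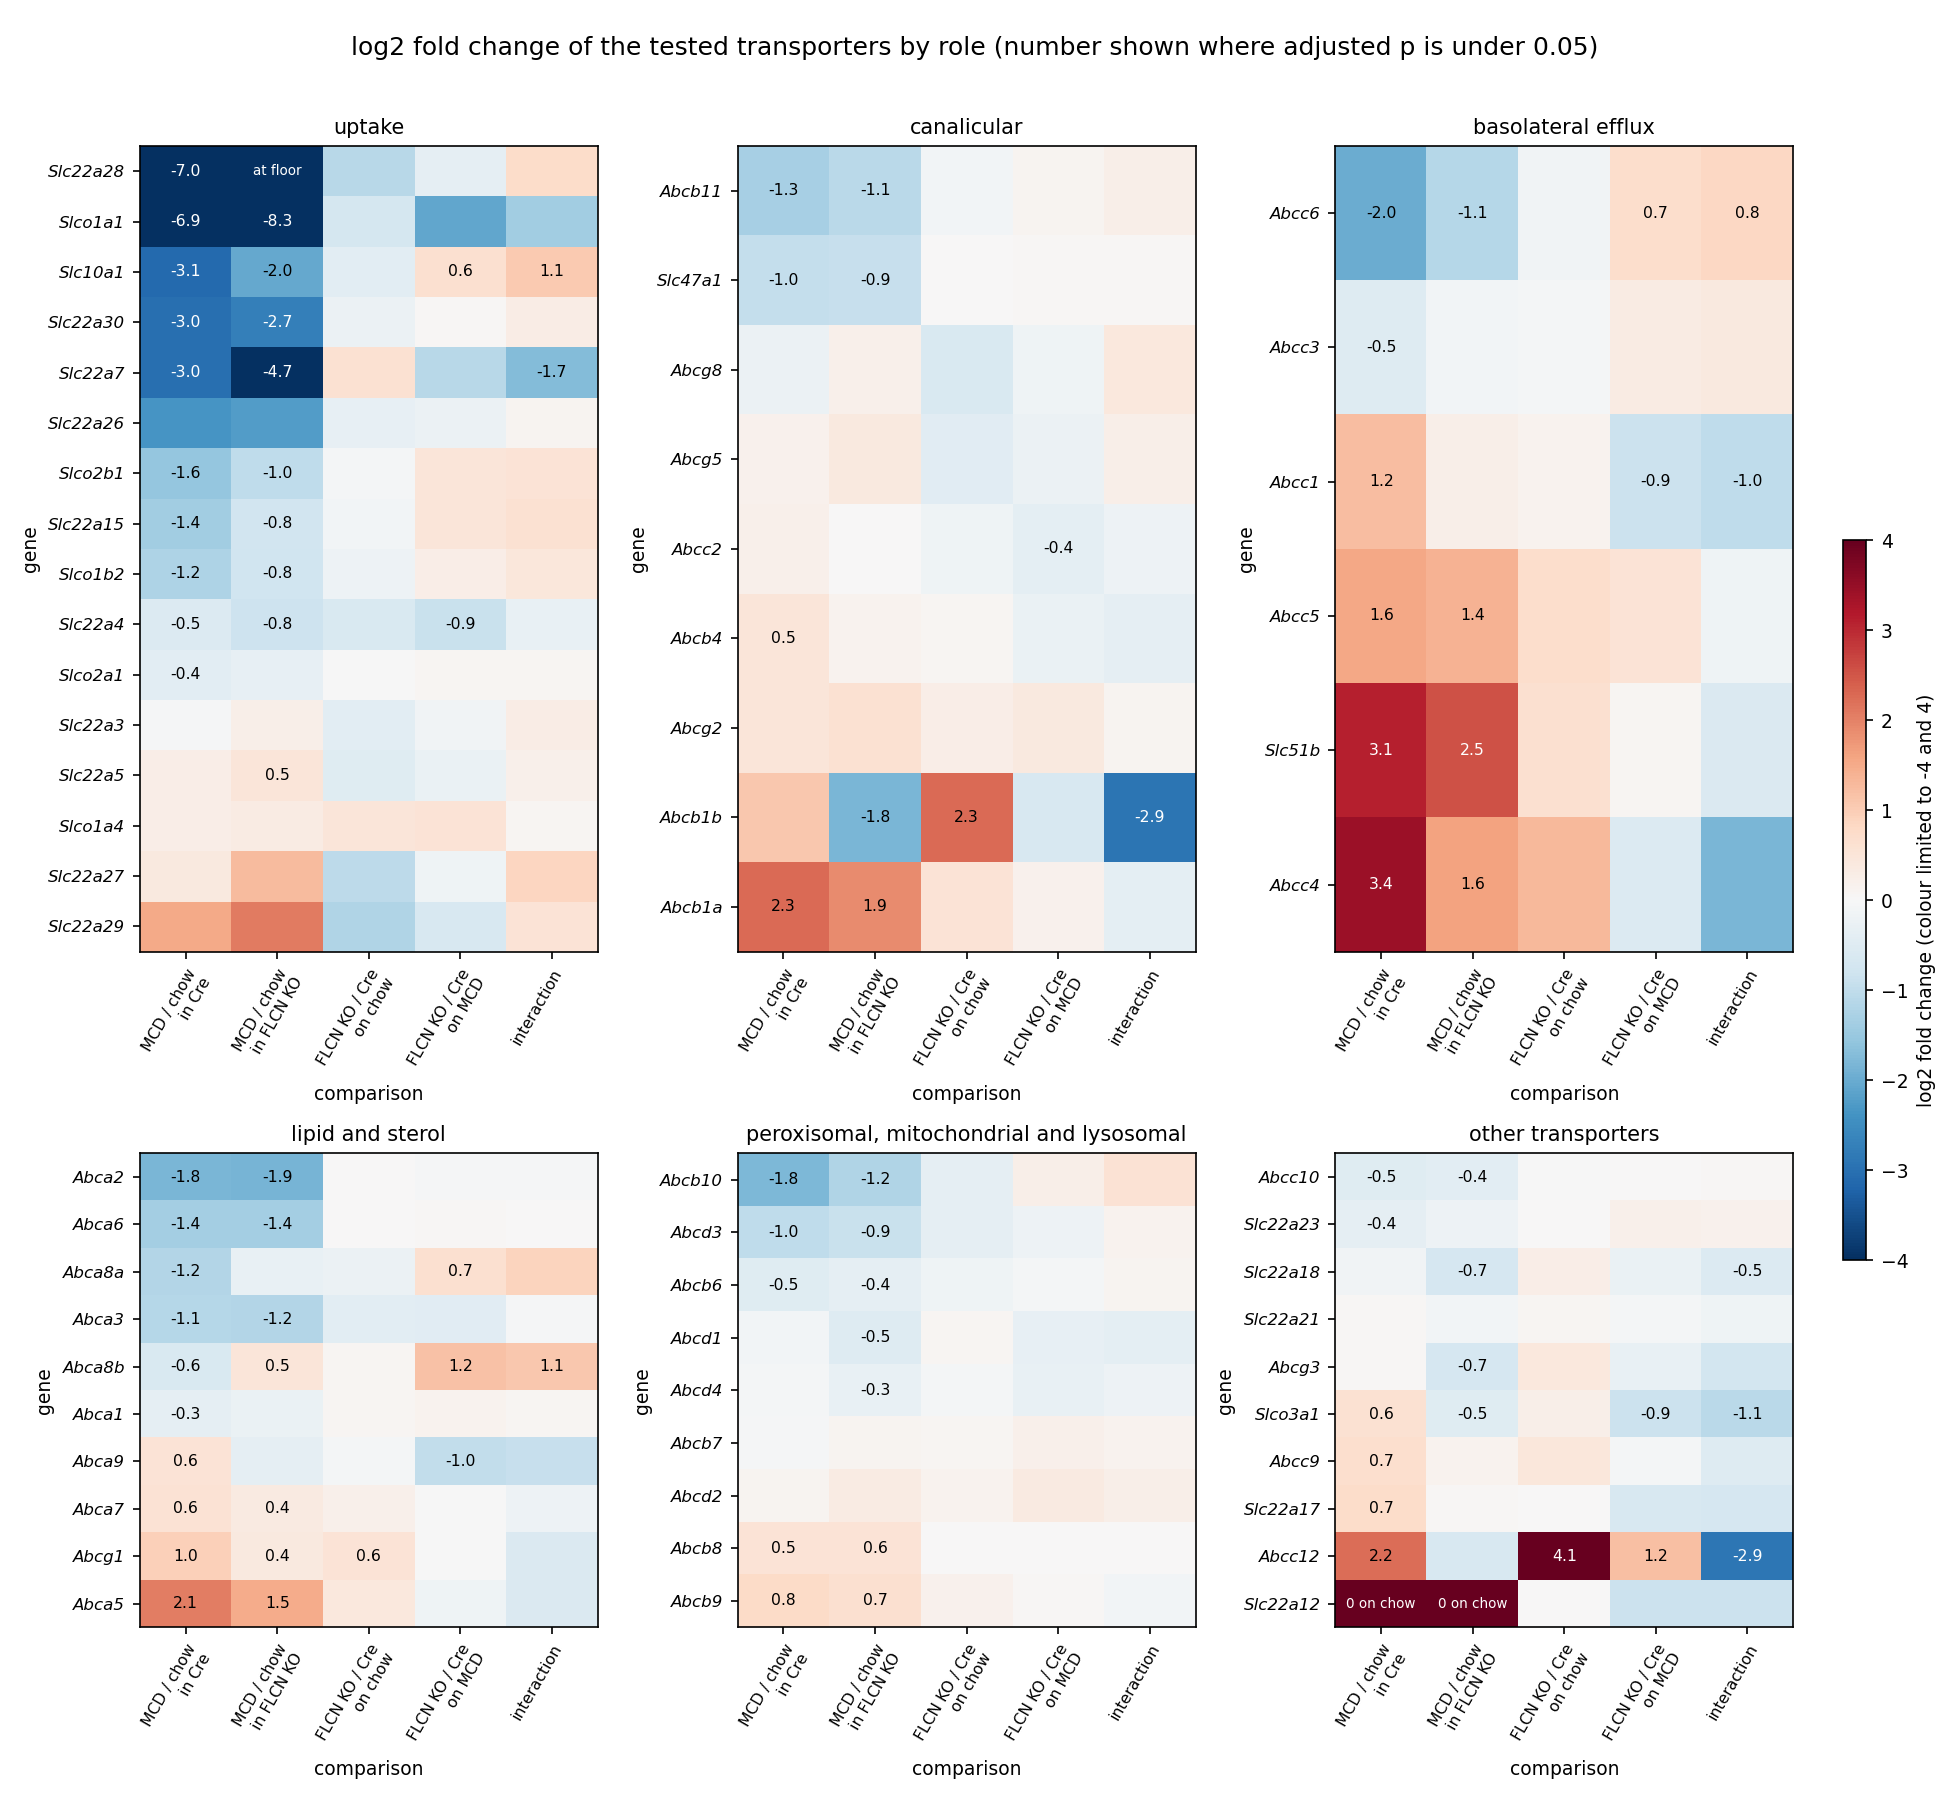
Log2 fold changes (colour, limited to −4 and 4) of 60 of the 61 tested transporters, 1 panel per role, with genes in rows and the 5 comparisons in columns; a number is printed where the adjusted p from edgeR is under 0.05. In the uptake panel 0 genes rose with MCD in Cre mice and Slc10a1 fell by 3.11, while 4 of 6 basolateral exporters rose. Slc22a12, at 0 counts in all chow livers, and Slc22a28, at no more than 3 counts in FLCN KO livers on MCD, carry words in place of a fold.

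Most uptake carriers were called lower on MCD. Of 17 tested, 0 rose and 11 fell in Cre mice (median log2 fold change -1.25), and 1 rose and 10 fell in FLCN KO mice (median -0.80). In the fit with sex, described further on, 1 rose and 11 fell in females (of all tested genes 28.7% rose and 28.2% fell), and 5 rose (Slc22a26, Slc22a27, Slc22a29, Slc22a5 and Slco1a4) and 10 fell in males (of all genes 26.0% and 24.4%). Slc10a1 (ENSMUSG00000021135, chr12:80953183-80968705, minus strand; GRCm38) lay between 781 and 934 CPM (median 875) in Cre chow livers and at 96.5, 45.2, 111, 109 and 141 CPM on MCD. In FLCN KO livers it lay at 633, 706, 667, 593 and 660 CPM on chow and between 104 and 235 CPM (median 145) on MCD. Every MCD liver was below every chow liver in both genotypes, by 8.63-fold in Cre (log2 fold change -3.11 ± 0.23, adjusted p = 4.45e-10) and 4.14-fold in FLCN KO mice (log2 fold change -2.05 ± 0.21, adjusted p = 1.02e-07; edgeR). Slco1b2 (ENSMUSG00000030236, chr6:141629518-141686646, plus strand) went from between 1157 and 2069 CPM (median 1453) to 690, 393, 855, 584 and 703 CPM in Cre livers, a 2.38-fold decrease (log2 fold change -1.25 ± 0.17, adjusted p = 1.99e-06). In FLCN KO livers the same gene went from 1333, 1506, 1496, 1041 and 1317 CPM to between 654 and 885 CPM (median 766) (log2 fold change -0.80 ± 0.16, adjusted p = 3.99e-04). Again the diets did not overlap in either genotype.

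Slc22a7, Slco1a1, Slc22a28 and Slc22a30 also fell in both genotypes. Slc22a7, the liver organic anion transporter OAT2, lay between 36.6 and 85.8 CPM (median 62.9) in Cre chow and 15.1, 2.54, 9.28, 7.03 and 4.35 CPM in Cre MCD livers (log2 fold change -3.00 ± 0.40, adjusted p = 1.91e-06 by edgeR). In FLCN KO livers it lay at 120, 66.1, 133, 105 and 50.9 CPM on chow and between 1.53 and 5.08 CPM (median 3.69) on MCD (log2 fold change -4.75 ± 0.41, adjusted p = 1.21e-08), and groups did not overlap. Slco1a1, an organic anion carrier, ranged between 34.8 and 911 CPM (median 295) in Cre livers on chow and had 0.453, 0.345, 13.3, 1.55 and 0.461 CPM on MCD. It had 390, 222, 495, 42.6 and 20.3 CPM in FLCN KO livers on chow and ranged between 0.0977 and 2.49 CPM (median 0.292) on MCD. The chow livers separated by sex, given with its values further on, and the diet groups did not overlap (-6.88 ± 1.27 in Cre and -8.28 ± 1.29 in FLCN KO mice on the log2 scale, adjusted p = 9.53e-05 and 2.47e-05). Without Cre MCD 3, the liver with the muscle RNA and the highest MCD level, the Cre value was -9.08, and without FLCN KO MCD 4 the FLCN KO value was -9.27. Slc22a28 came down to 6 counts or fewer in each Cre and 3 or fewer in each FLCN KO liver on MCD. On chow it ranged between 0.432 and 28.8 CPM (median 8.75) in Cre livers and had 13.2, 2.73, 9.94, 1.05 and 0.108 CPM in FLCN KO livers. The males had the highest chow values in both genotypes, and FLCN KO Chow 5 lay below FLCN KO MCD 5 (0.147 CPM), so that the diets overlapped in FLCN KO mice. edgeR called the fall in both genotypes (log2 fold change -6.99 ± 1.33, adjusted p = 1.30e-04 in Cre and adjusted p = 5.12e-04 in FLCN KO mice) and limma-voom in neither. Leaving out single livers moved the Cre value between -8.11 and -6.47. Against a floor of 3 counts per library, the FLCN KO chow mean was at least 37.9-fold above the FLCN KO MCD livers. Slc22a30 went from 151 ± 33.5 to 18.6 ± 8.05 CPM in Cre livers (SD, n = 6 and 5) and from 128 ± 24.3 to 19.4 ± 5.6 in FLCN KO livers (n = 5 and 6). Slc22a26 to Slc22a30 are neighbouring, closely related genes on chromosome 19, between which reads may be divided unreliably.

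Smaller falls in both genotypes were those of Slco2b1 (-1.55 in Cre and -1.01 in FLCN KO on the log2 scale), Slc22a15 (-1.38 and -0.78) and Slc22a4, the ergothioneine carrier (-0.55 and -0.84). Slco2a1, the prostaglandin transporter, fell in Cre mice (log2 fold change -0.41 ± 0.15, adjusted p = 0.0206; in FLCN KO mice -0.32, adjusted p = 0.0771, edgeR). The calls of Slc22a4 and Slco2a1 in Cre mice were lost without single livers, for Slc22a4 without Cre Chow 5, Cre Chow 6 or Cre MCD 2 (adjusted p up to 0.079) and for Slco2a1 without Cre MCD 3 or Cre MCD 4 (adjusted p up to 0.0649). Slc22a5, the carnitine transporter, was the only uptake carrier among the 17 to rise in the fit of the 4 groups, and did so in FLCN KO mice (log2 fold change 0.48 ± 0.16, adjusted p = 0.016; in Cre mice 0.26, adjusted p = 0.147). Slc22a3 was not called in either genotype (-0.04 and 0.25).

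Of 9 canalicular pumps tested, 2 rose and 2 fell in Cre mice (22.2% each, beside 29.3% and 28.2% of all tested genes), and 1 rose and 3 fell in FLCN KO mice (all genes 22.5% and 22.5%). Abcb11 (ENSMUSG00000027048, chr2:69238282-69342616, minus strand) lay between 700 and 1007 CPM (median 926) in Cre chow and at 472, 271, 297, 337 and 383 CPM in Cre MCD livers. FLCN KO livers had 631, 1018, 826, 693 and 880 CPM on chow and between 322 and 451 CPM (median 394) on MCD. No MCD liver reached the lowest chow liver, and the fall was 2.5-fold in Cre (log2 fold change -1.32 ± 0.15, adjusted p = 2.33e-07) and 2.11-fold in FLCN KO mice (log2 fold change -1.08 ± 0.15, adjusted p = 4.32e-06; edgeR). Slc47a1, the cation and proton antiporter MATE1, fell too (-0.96 and -0.91). Abcb1a, a P-glycoprotein that exports drugs, moved the other way, from between 0.949 and 8.77 CPM (median 3.66) to 24.3, 19.2, 21.1, 17.1 and 20.4 CPM in Cre livers (log2 fold change 2.27 ± 0.49, adjusted p = 4.91e-04). In FLCN KO livers it went from 1.32, 6.48, 1.68, 10.5 and 10.6 CPM to between 19.7 and 29.1 CPM (median 21.3) (log2 fold change 1.90 ± 0.49, adjusted p = 0.00354), and in neither genotype did the diets overlap. Abcb4, which moves phosphatidylcholine into bile, rose in Cre mice from 253 ± 36 to 354 ± 43.8 CPM (log2 fold change 0.49 ± 0.10, adjusted p = 2.38e-04; in FLCN KO mice 0.14, adjusted p = 0.275). Abcc2, which exports conjugates into bile, was not called for diet (0.20 in Cre, adjusted p = 0.18, and 0.00 in FLCN KO mice, adjusted p = 0.993). Neither were Abcg5 and Abcg8, the partner subunits of the sterol exporter (0.16 and -0.24 in Cre, 0.39 and 0.19 in FLCN KO mice). Abcg5 and Abcg8 overlap on opposite strands in the annotation, so reads of the shared stretch could belong to either.

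Of 6 basolateral exporters tested, 4 rose and 2 fell in Cre mice (all genes 29.3% and 28.2%), and in FLCN KO mice 3 rose, 1 fell and 2 were not called (all genes 22.5% and 22.5%). Abcc4 (ENSMUSG00000032849, chr14:118482692-118706219, minus strand), which exports bile acids with glutathione and cyclic nucleotides, lay between 1.11 and 5.06 CPM (median 2.27) in Cre chow and at 31.1, 50.1, 13, 17.7 and 30 CPM in Cre MCD livers. In FLCN KO livers it had 1.87, 4.46, 3.43, 11.8 and 10.2 CPM on chow and between 14.5 and 28.6 CPM (median 17.7) on MCD. The rise was 10.8-fold in Cre (log2 fold change 3.44 ± 0.44, adjusted p = 1.34e-06) and 3.03-fold in FLCN KO mice (log2 fold change 1.60 ± 0.42, adjusted p = 0.00373; edgeR), with no overlap between diets. The genotypes' responses differed by -1.84 ± 0.59 on the log2 scale, which missed the threshold (adjusted p = 0.0565). Slc51b, the beta subunit of the organic solute transporter, had between 0.643 and 1.7 CPM (median 1.3) in Cre chow and 11.7, 15.3, 2.48, 9.8 and 14 CPM in Cre MCD livers. FLCN KO livers had 1.95, 0.713, 2.01, 2.76 and 2.16 CPM on chow and between 7.57 and 13.8 CPM (median 11.8) on MCD. The lowest MCD liver, Cre MCD 3, was still above all chow livers of its genotype (log2 fold change 3.10 ± 0.37, adjusted p = 4.47e-07 in Cre and log2 fold change 2.53 ± 0.37, adjusted p = 1.05e-05 in FLCN KO mice). Its partner Slc51a stayed at or under 6 counts, as given above. Abcc5 rose in both genotypes (1.55 and 1.39). Abcc6, a hepatocyte efflux transporter needed for ATP release, fell from between 157 and 222 CPM (median 183) to 46.2, 33.5, 56.9, 61.1 and 37.3 CPM in Cre livers (log2 fold change -1.99 ± 0.16, adjusted p = 2.33e-09). FLCN KO livers went from 181, 206, 134, 171 and 157 CPM to between 58.2 and 99.5 CPM (median 72.5) (log2 fold change -1.15 ± 0.15, adjusted p = 3.92e-06). Abcc3 fell in Cre mice (log2 fold change -0.51 ± 0.19, adjusted p = 0.0267) but not without Cre Chow 3, Cre Chow 4, Cre MCD 1 or Cre MCD 3 (adjusted p up to 0.0801).

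**Figure D2:**
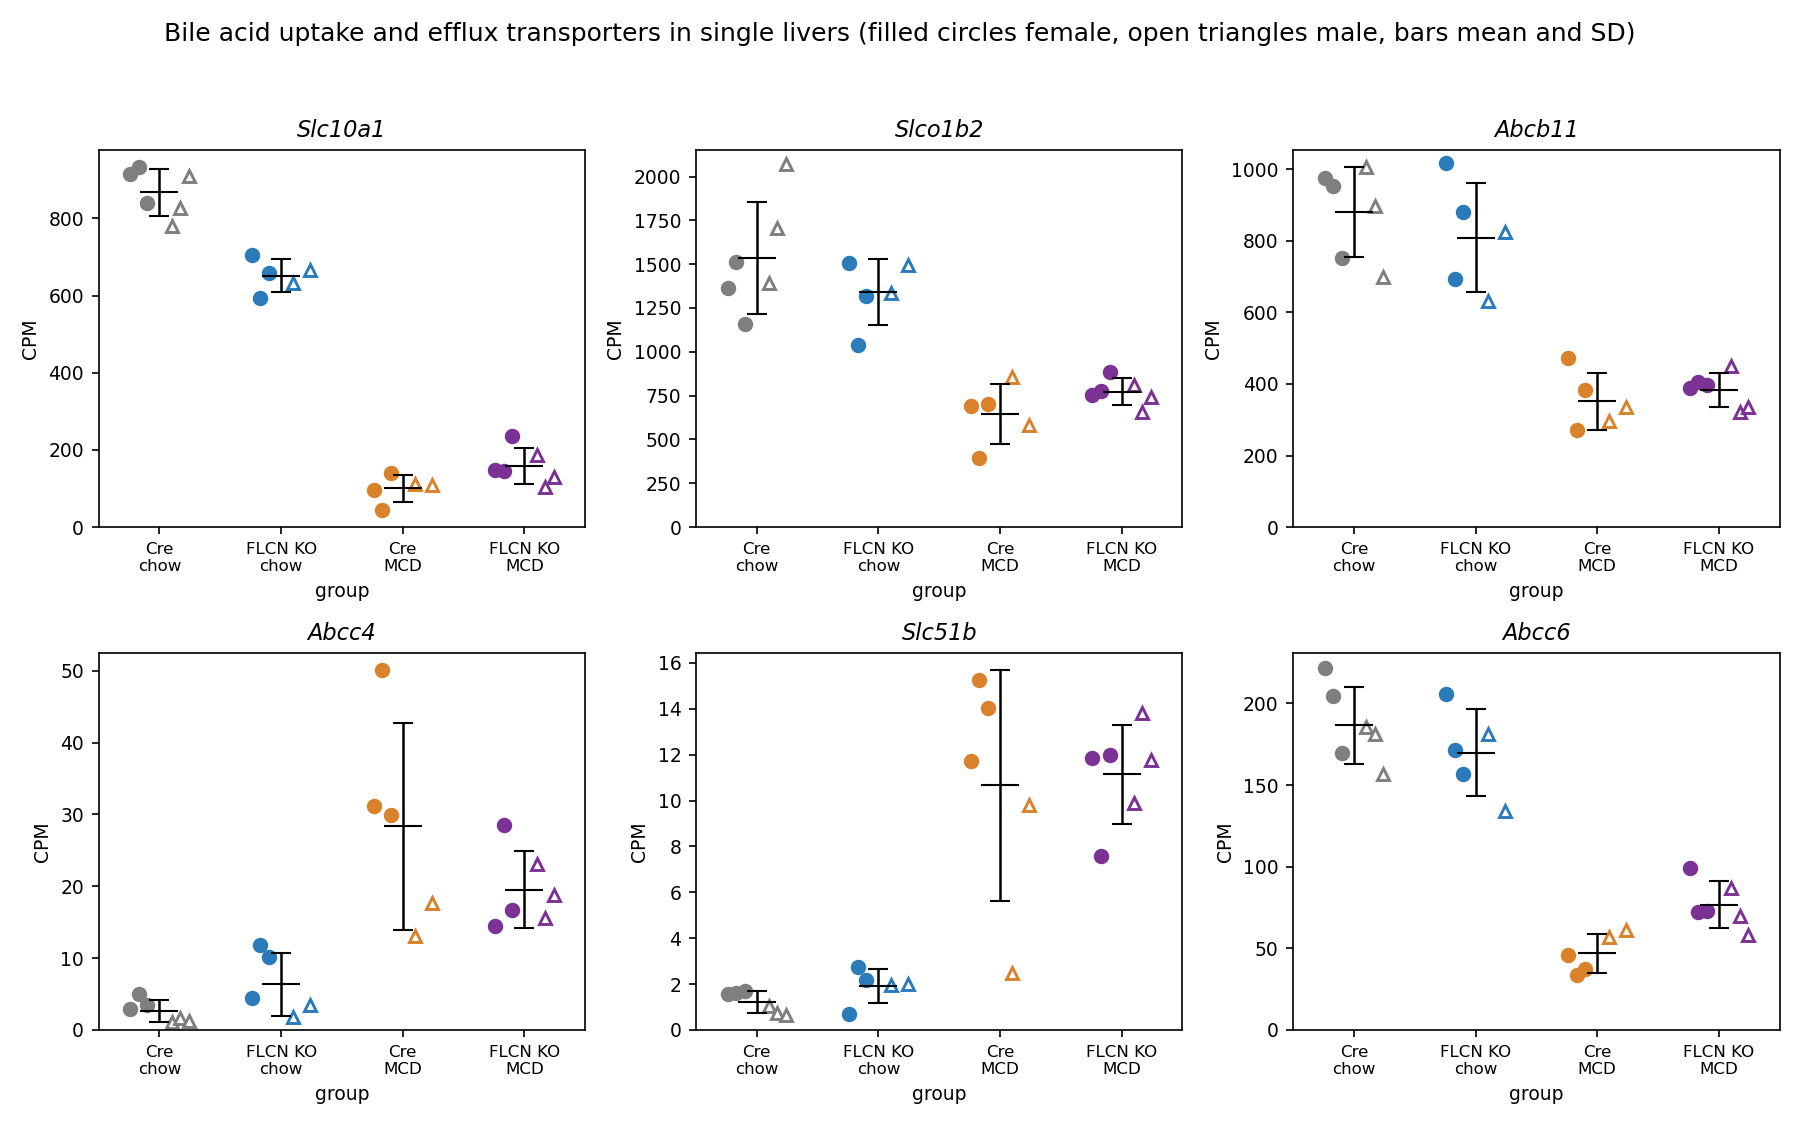
CPM of 6 bile acid and efflux transporters in each liver (linear axes from 0), by group on the x axis; filled circles are female and open triangles male livers, and bars give the mean and SD of each group. Slc10a1, Slco1b2, Abcb11 and Abcc6 are lower and Abcc4 and Slc51b higher in every MCD liver than in every chow liver of the same genotype.

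Because Abcc4 was the exporter with the largest rise in Cre mice, its upstream window is shown. RefSeq (GRCm38.p6) gives 2 start windows for it, each of 250 bases before and 50 after a start. The one at chr14:118706170-118706469, minus strand, printed 5′ to 3′ on the gene's strand, has 1 CACGTG (the E-box core bound by TFEB and TFE3, starting 205 bases before the start), 1 TGACNNNGC (antioxidant response element core, read on the opposite strand, starting 25 bases before it) and 2 GCGTG (aryl hydrocarbon receptor core, on the opposite strand) in capitals.
Abcc4: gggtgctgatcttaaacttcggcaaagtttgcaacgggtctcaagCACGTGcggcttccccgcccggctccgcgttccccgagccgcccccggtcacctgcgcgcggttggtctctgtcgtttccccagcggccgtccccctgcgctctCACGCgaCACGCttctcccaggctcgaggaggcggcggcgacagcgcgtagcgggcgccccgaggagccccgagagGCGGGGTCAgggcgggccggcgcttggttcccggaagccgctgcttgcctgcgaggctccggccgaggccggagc
On both strands, 7.15% of 32851 RefSeq windows hold CACGTG, 12.4% TGACNNNGC and 32.4% GCGTG. Of the 55 windows of the 46 tested members that have one, 9.09, 14.5 and 21.8% do. These matches describe the letters in the windows and no binding was measured.

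Among lipid and sterol transporters, 4 of 10 rose and 6 fell in Cre mice (all tested genes 29.3% and 28.2%), and 4 rose and 3 fell in FLCN KO mice (all genes 22.5% and 22.5%). Abca5, a lysosomal sterol transporter, rose from between 4.51 and 5.9 CPM (median 5.31) to 19.1, 24.4, 17.8, 18.3 and 30.5 CPM in Cre livers (log2 fold change 2.06 ± 0.18, adjusted p = 4.21e-09; in FLCN KO mice 1.47 ± 0.18, adjusted p = 9.18e-07, edgeR). Abcg1, which exports cholesterol to lipoproteins, rose 1.94-fold in Cre mice (log2 fold change 0.96 ± 0.15, adjusted p = 2.05e-05) and by 0.38 ± 0.15 on the log2 scale in FLCN KO mice (adjusted p = 0.0482). The latter call was lost without Cre MCD 1, Cre MCD 4, Cre MCD 5, FLCN KO Chow 1, FLCN KO Chow 4, FLCN KO Chow 5, FLCN KO MCD 1, FLCN KO MCD 2, FLCN KO MCD 3 or FLCN KO MCD 6 (adjusted p up to 0.137). Abca7 rose in both (0.57 and 0.36). Abca2, a transporter of late endosomes and lysosomes, fell from between 54.2 and 83.7 CPM (median 68.7) to 23.3, 20.7, 19.1, 20 and 15.8 CPM in Cre livers (log2 fold change -1.82 ± 0.11, adjusted p = 5.45e-11). FLCN KO livers went from 61.2, 85.4, 64.3, 75 and 65.5 CPM to between 17.7 and 20.1 CPM (median 19.5) (log2 fold change -1.87 ± 0.11, adjusted p = 4.93e-11), so that chow and MCD livers formed separate ranges in both genotypes. Abca6 (-1.37 and -1.36) and Abca3, a phospholipid transporter (-1.14 and -1.18), fell likewise. Abca1, the main exporter of cholesterol to apolipoprotein A-I, fell in Cre mice (log2 fold change -0.35 ± 0.13, adjusted p = 0.0244; in FLCN KO mice -0.27, adjusted p = 0.0824). That call was lost without Cre MCD 2, Cre MCD 4 or Cre MCD 5 (adjusted p up to 0.0804), and the rise of Abca9 in Cre mice (log2 fold change 0.56 ± 0.20, adjusted p = 0.0229) without Cre Chow 5 or Cre MCD 3 (adjusted p up to 0.119).

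Inside the cell, 2 of 9 transporters rose and 3 fell in Cre mice, near the 29.3% and 28.2% of all tested genes, and 2 rose and 5 fell in FLCN KO mice (all genes 22.5% and 22.5%). Abcd3 fell from between 599 and 850 CPM (median 730) to 344, 246, 448, 359 and 393 CPM in Cre livers (log2 fold change -1.02 ± 0.13, adjusted p = 9.84e-07) and by 0.89 ± 0.13 on the log2 scale in FLCN KO livers (adjusted p = 8.09e-06, edgeR). Abcb10, a mitochondrial transporter needed for haem synthesis, fell more (-1.79 and -1.20). Abcb8 of mitochondria (0.54 and 0.56) and Abcb9, a lysosomal peptide transporter (0.77 and 0.65), rose. Among the others, Slc22a12, the urate transporter URAT1 of the kidney, had 0 counts in all 11 chow livers. On MCD it had 0.535, 3.02, 0.141, 1.36 and 2.46 CPM in Cre livers and between 0.64 and 0.954 CPM (median 0.841) in FLCN KO livers. Against a floor of 3 counts per library this was at least 7.33-fold higher in Cre and at least 4.38-fold higher in FLCN KO mice. Cre MCD 3 (0.141 CPM) was itself near that floor. With a mean of 12.1 counts, Slc22a12 passed the count limit only through the MCD livers. Its adjusted p from edgeR (6.94e-05 and 6.21e-04) is therefore no separate support, and it is among the 17 rises in Cre and 12 in FLCN KO mice.

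Sex was compared after the values had been seen, since several transporters fell into separate clusters within each chow group. One fit held genotype, diet and sex. On chow, 4 of 61 transporters were higher and 11 lower in males, where 5.38% of all tested genes were higher and 6.46% lower. On MCD, 0 were higher and 2 lower (0.256% and 0.178% of all genes). The response to MCD itself differed between the sexes for 10 transporters, 8 with the more positive response in males and 2 in females, against 4.88% and 2.6% of all genes. The male livers on chow are the 5 libraries of low unique mapping, and with only females left on chow the sex contrast on chow and the difference in response cannot be refitted without them.

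Female livers on chow had far more Slc22a26 and Slc22a27, organic anion transporter genes of the chromosome 19 cluster. Slc22a26 (ENSMUSG00000053303, chr19:7781041-7802667, minus strand) ranged from 85.1 to 206 CPM (mean 152) in the 6 chow females and from 0.0677 to 0.336 CPM (mean 0.176) in the 5 chow males (log2 fold change -9.65 ± 0.49, adjusted p = 2.78e-10; edgeR). On MCD the females ranged from 9.09 to 23.1 CPM (mean 16.9) and the 5 males from 7.4 to 29.9 CPM (mean 16.1) (log2 fold change -0.04 ± 0.26, adjusted p = 0.975). The sexes thus went opposite ways on the diet, with a decrease in females (-3.15 ± 0.26, adjusted p = 1.00e-08) and an increase in males (6.46 ± 0.51, adjusted p = 1.01e-08). Slc22a27 (ENSMUSG00000067656, chr19:7864388-7966027, minus strand) ranged from 17.3 to 69.6 CPM (mean 42.6) in chow females and from 0 to 0.609 CPM (mean 0.284) in chow males (log2 fold change -7.10 ± 0.46, adjusted p = 4.10e-09). On MCD it ranged from 17.7 to 52.4 CPM (mean 40.5) in females and from 18.8 to 57 CPM (mean 34.9) in males, which overlapped. In chow males the floor of 3 counts is 0.223 CPM on average. The chow male means of Slc22a26 and Slc22a27 lay near it, so the sizes of folds against chow males are uncertain. Slc22a29 was lower in males on both diets (-5.96 ± 0.70 on chow and -3.01 ± 0.34 on MCD, adjusted p = 1.22e-05 and 2.85e-04).

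Slco1a4, an organic anion carrier that also takes up digoxin, ranged from 147 to 226 CPM (mean 179) in chow females and from 18.4 to 60.9 CPM (mean 41.2) in chow males. On MCD all males were above all chow males, with females from 98.7 to 215 CPM (mean 148) and males from 114 to 189 CPM (mean 151). The difference of the sexes was -2.11 ± 0.18 on chow (adjusted p = 2.06e-07), -0.02 ± 0.17 on MCD (adjusted p = 0.979) and, for the response, 2.08 ± 0.25 on the log2 scale (adjusted p = 3.35e-05, edgeR). Abcd2, a peroxisomal transporter of very long-chain and polyunsaturated fatty acids, ranged from 67.9 to 109 CPM (mean 94) in chow females and from 6.96 to 20.7 CPM (mean 13.1) in chow males. On MCD its ranges were 35.6 to 96.5 CPM (mean 69.3) and 59.4 to 79.7 CPM (mean 68.8) (log2 fold change -0.03 ± 0.19, adjusted p = 0.979). Abcb1a showed the same layout, with means of 8.17 and 1.28 CPM in females and males on chow and 22.2 and 21.6 CPM on MCD. Its rise on MCD was 1.45 ± 0.14 in females and 4.00 ± 0.20 in males on the log2 scale. In the fit without sex, diet was not called for Slco1a4, Abcd2, Slc22a26 or Slc22a27 in either genotype.

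Some members were higher in males. Slco1a1 ranged from 390 to 911 CPM (mean 593) in chow males and from 20.3 to 222 CPM (mean 79.8) in chow females (log2 fold change 2.82 ± 0.53, adjusted p = 0.00155; edgeR). The highest of these females were FLCN KO Chow 2 (222 CPM) and Cre Chow 2 (121 CPM), which had 451 and 180 Y-linked counts, while FLCN KO Chow 4, with 214, had 42.6 CPM. The part of male RNA in those libraries was not tested. Slc22a28 followed, with means of 17.6 and 1.25 CPM (log2 fold change 3.67 ± 0.47, adjusted p = 2.78e-05), and the same 2 livers had the highest female values (2.73 and 2.55 CPM, against 1.05 CPM in FLCN KO Chow 4). Abcg2, the breast cancer resistance protein, a canalicular pump for urate and drugs, ranged from 36.9 to 67.1 CPM (mean 50.9) in chow females and from 124 to 178 CPM (mean 145) in chow males. On MCD females ranged from 111 to 149 CPM (mean 130) and males from 108 to 222 CPM (mean 150). Its response differed by -1.45 ± 0.16 on the log2 scale (adjusted p = 1.30e-05): it rose in females (1.38 ± 0.11, adjusted p = 5.23e-09) and not in males (-0.07, adjusted p = 0.64). Abcc4 was lower in males on chow (log2 fold change -1.60 ± 0.31, adjusted p = 0.00171), and rose with MCD in both sexes (2.23 in females and 3.17 in males). Abcb10 was higher in chow males, and Abca3, Abcc3, Abcc5 and Abcc9 were lower, each by less than 1 on the log2 scale (from -0.96 to 0.65).

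**Figure D3:**
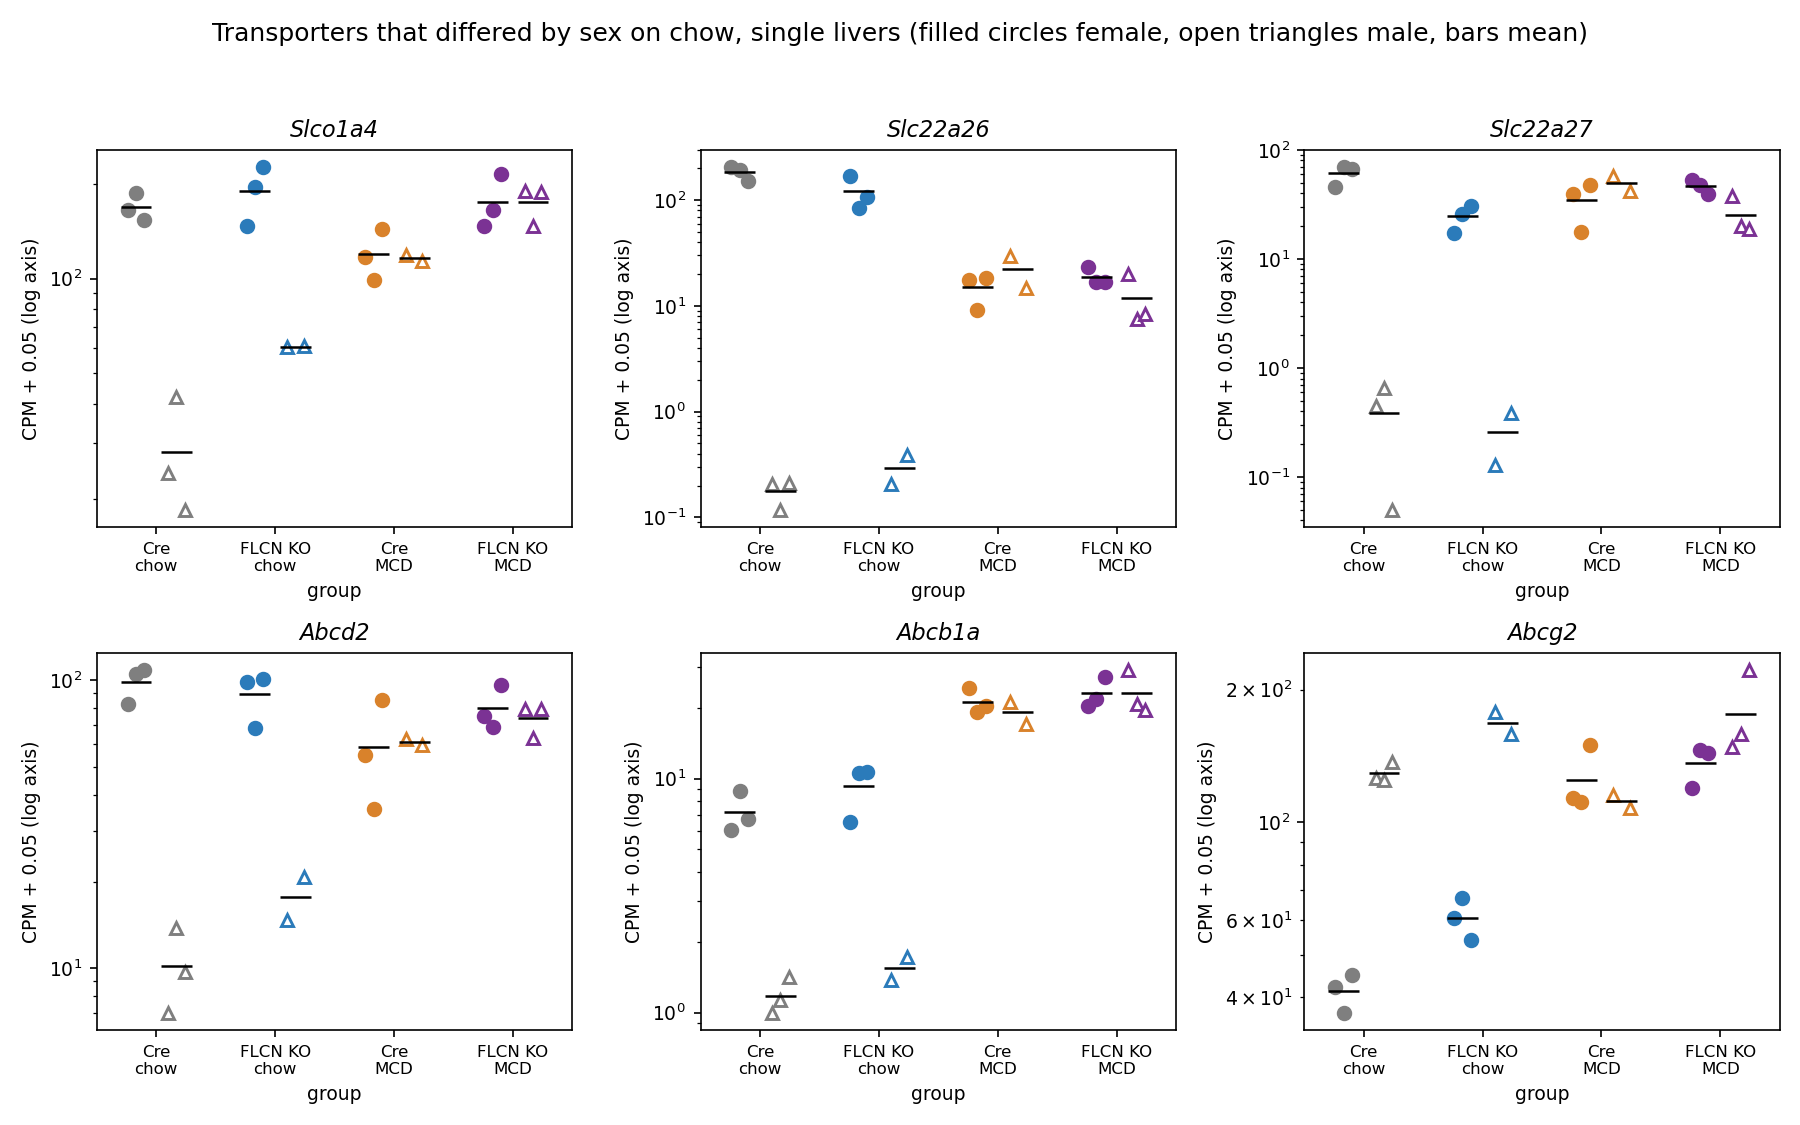
CPM + 0.05 (log axes) of 6 transporters in each liver, by group on the x axis; filled circles are female and open triangles male livers, and bars give the mean of each sex. On chow, females lie above males for Slco1a4, Slc22a26, Slc22a27, Abcd2 and Abcb1a and below them for Abcg2, while over both genotypes on MCD the ranges of the sexes overlap for all 6.

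**Figure D4:**
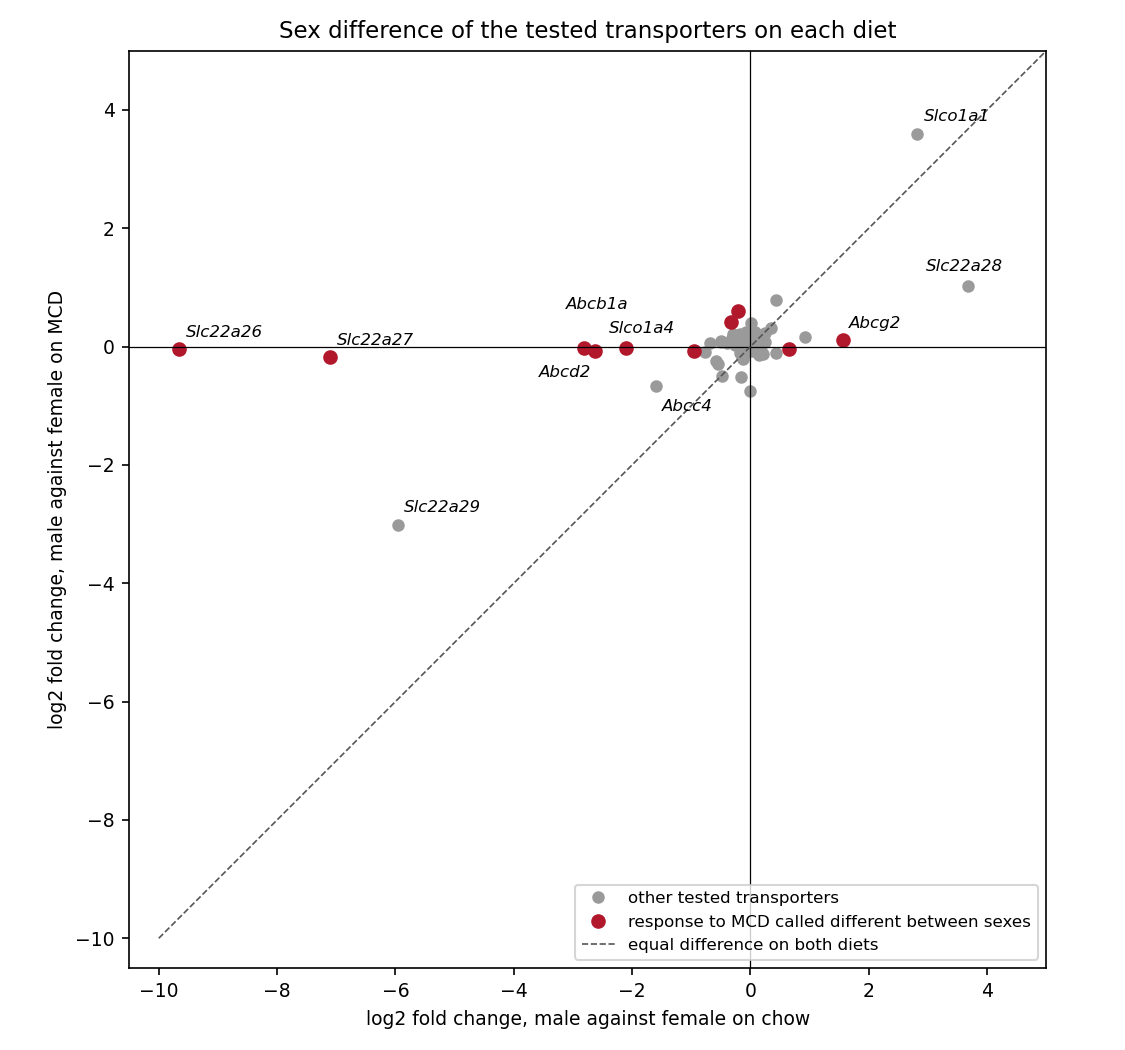
Log2 fold change between males and females on chow (x axis) and on MCD (y axis), 1 point for each of the 61 tested transporters; red points have a response to MCD called different between the sexes, and the dashed line marks equal differences. Slc22a26 and Slc22a27 lie at -9.65 and -7.10 on chow, where their male means are near the floor of 3 counts, and at -0.04 and -0.18 on MCD. Slc22a29 keeps a difference of -3.01 on MCD. Slco1a1 lies at 3.60 on MCD, which was not called (adjusted p = 0.108, edgeR). Its highest MCD livers of each genotype, Cre MCD 3 (13.3 CPM, with muscle RNA) and FLCN KO MCD 4 (2.49 CPM), are male.

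Few transporters differed by genotype on chow. There 3 of 61 were higher in FLCN KO mice and 0 lower, where 5.52% of all tested genes were higher and 3.1% lower. At an unadjusted p under 0.05, edgeR had 16 transporters. Abcc12 (ENSMUSG00000036872, chr8:86482260-86580686, minus strand), an ABC transporter with little known of its substrates, ranged between 0.158 and 1.04 CPM (median 0.307) in Cre livers and had 5.76, 3.86, 6.92, 11.5 and 6.25 CPM in FLCN KO livers. All FLCN KO livers were above all Cre livers, by 16.9-fold (log2 fold change 4.08 ± 0.36, adjusted p = 1.37e-07; exact permutation p = 0.00216, the smallest possible). In Cre chow livers the floor of 3 counts is 0.205 CPM on average. The Cre chow median of Abcc12 lay near it, so the sizes of its folds against Cre chow livers are uncertain. Within females the log2 difference was 4.73 (adjusted p = 7.30e-05) and within males 3.53 (adjusted p = 0.00459, edgeR). Abcb1b, the second P-glycoprotein gene, ranged between 0.425 and 1.29 CPM (median 0.683) in Cre livers and had 3.74, 1.78, 5.24, 6.4 and 1.56 CPM in FLCN KO livers (log2 fold change 2.26 ± 0.46, adjusted p = 0.00293). Here too the genotypes did not overlap, and without the 5 low-mapping libraries the size was the same (2.26) with an adjusted p of 0.0823. Abcg1 was 1.47-fold higher (log2 fold change 0.56 ± 0.16, adjusted p = 0.0277). Its difference was 1.01 within males and 0.23 within females (adjusted p = 0.0303 and 0.484), and the call was lost without Cre Chow 1, Cre Chow 5, Cre Chow 6, FLCN KO Chow 2, FLCN KO Chow 3 or FLCN KO Chow 5 (adjusted p up to 0.079). Slc10a1 was not called on chow (log2 fold change -0.41 ± 0.20, adjusted p = 0.226), although the 633, 706, 667, 593 and 660 CPM of the FLCN KO livers all lay under the lowest Cre liver (781 CPM; exact permutation p = 0.00216). Some cell type markers also differed by genotype on chow: 2 of 8 macrophage markers (Marco 2.01 and Trem2 1.65 on the log2 scale), 2 of 8 cholangiocyte markers (Cftr 2.45 and Spp1 1.21) and 1 of 8 endothelial markers (Stab2 0.76) were higher in FLCN KO mice, and 2 of 8 hepatocyte markers (Apoh -0.39 and Ttr -0.46) lower. The 8 macrophage markers summed to medians of 466.9 CPM in Cre and 526.1 CPM in FLCN KO livers on chow, with Cd5l the most abundant and none at 0, and the 8 endothelial markers to 323 and 363 CPM, with Ptprb the most abundant and none at 0. Their part in the differences of Abcg1, Abcb1b and Abcc12 was not tested.

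On MCD, 5 of 61 transporters were higher in FLCN KO mice and 5 lower, close to the 8.06% and 8.53% of all tested genes. Abca8b and Abca8a, neighbouring members of the Abca cluster of chromosome 11 with roles in lipid transport, were both higher. Abca8b (ENSMUSG00000020620, chr11:109932190-109995845, minus strand) had 55.3, 37.6, 71.2, 48 and 65.6 CPM in Cre MCD livers and ranged between 106 and 156 CPM (median 122) in FLCN KO MCD livers. The lowest FLCN KO liver was above the highest Cre liver, a 2.26-fold difference (log2 fold change 1.18 ± 0.14, adjusted p = 4.81e-06, edgeR), which was 1.36 within females and 0.94 within males. On chow the same gene had 84.7 ± 8.41 CPM in Cre and 89.8 ± 11.5 CPM in FLCN KO livers (SD, n = 6 and 5), so that MCD lowered it in Cre mice (log2 fold change -0.61 ± 0.13, adjusted p = 5.74e-04) and raised it in FLCN KO mice (log2 fold change 0.48 ± 0.13, adjusted p = 0.00533). Abca8a was 1.57-fold higher (log2 fold change 0.65 ± 0.20, adjusted p = 0.0302), but not called without Cre MCD 1, Cre MCD 2, Cre MCD 4, FLCN KO MCD 4 or FLCN KO MCD 6 (adjusted p up to 0.0877). The 2 genes are similar in sequence, and reads may be divided between them unreliably.

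The RefSeq windows of Abca8a and Abca8b (GRCm38.p6, 250 bases before to 50 after the start, minus strand, 5′ to 3′) are shown. CACGTG, the core of the element that TFEB and TFE3 bind, is in capitals. The window of Abca8a is chr11:110095888-110096187 and that of Abca8b chr11:109995796-109996095.
Abca8a: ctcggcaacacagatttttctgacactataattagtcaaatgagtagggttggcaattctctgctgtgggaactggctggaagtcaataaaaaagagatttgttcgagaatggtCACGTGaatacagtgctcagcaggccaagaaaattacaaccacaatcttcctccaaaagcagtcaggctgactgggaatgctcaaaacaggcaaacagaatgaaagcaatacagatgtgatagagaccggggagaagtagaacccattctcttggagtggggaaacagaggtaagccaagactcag
Abca8b: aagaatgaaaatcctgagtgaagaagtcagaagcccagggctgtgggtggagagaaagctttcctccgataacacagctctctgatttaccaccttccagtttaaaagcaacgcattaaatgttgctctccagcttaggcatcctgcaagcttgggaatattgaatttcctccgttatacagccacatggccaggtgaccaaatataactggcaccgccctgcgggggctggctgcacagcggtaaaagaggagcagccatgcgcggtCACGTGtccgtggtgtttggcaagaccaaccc
The match starts 136 bases before the start of Abca8a and at base 19 after that of Abca8b. The windows were chosen after the values had been seen, 7.15% of all RefSeq windows hold CACGTG, and no binding was measured. Neither Abca8a nor Abca8b was called between genotypes on chow. Abca1, Abcc4 and Slc22a4 are the other tested members with a match, and of these Slc22a4 was lower in FLCN KO mice on MCD and Abca1 and Abcc4 were not called between genotypes on either diet.

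Abcc6 and Slc10a1 were also higher in FLCN KO mice on MCD. Abcc6 had 76.6 ± 14.5 against 47 ± 12 CPM in Cre mice (SD, n = 6 and 5; log2 fold change 0.70 ± 0.16, adjusted p = 0.00357 by edgeR), with 1.06 within females (adjusted p = 0.00145) and 0.27 within males (adjusted p = 0.482). Slc10a1 had 157 ± 46.5 against 101 ± 35 CPM (log2 fold change 0.65 ± 0.21, adjusted p = 0.0342). The groups overlapped, and this call was lost without Cre MCD 1, Cre MCD 2, Cre MCD 4, FLCN KO MCD 1 or FLCN KO MCD 6 (adjusted p up to 0.103). Abcc12 remained higher in FLCN KO mice, between 3.51 and 6.21 CPM (median 4.1) against 2.26, 1.81, 1.08, 2.09 and 2.31 CPM in Cre livers (log2 fold change 1.19 ± 0.30, adjusted p = 0.00925).

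Lower in FLCN KO mice on MCD were Abca9, Slco3a1, Abcc1, Slc22a4 and Abcc2. Abcc1, an exporter of glutathione conjugates and leukotriene C4, had 4.78, 3.66, 6.52, 6.84 and 3.79 CPM in Cre livers and ranged between 1.51 and 3.68 CPM (median 2.88) in FLCN KO livers (log2 fold change -0.87 ± 0.20, adjusted p = 0.00483; edgeR). The highest values were in the 2 Cre males. Slco3a1, a widely expressed organic anion carrier, had 6.79, 5.04, 8.81, 6.02 and 5.79 CPM in Cre livers and ranged between 2.58 and 4.69 CPM (median 3.51) in FLCN KO livers, without overlap (log2 fold change -0.85 ± 0.19, adjusted p = 0.00316). Abca9 (log2 fold change -0.98 ± 0.20, adjusted p = 0.00197) and Slc22a4 (log2 fold change -0.89 ± 0.21, adjusted p = 0.00473) were lower, and Abcc2 by less (log2 fold change -0.38 ± 0.12, adjusted p = 0.0404), a call lost without Cre MCD 1, Cre MCD 2, Cre MCD 3, FLCN KO MCD 2, FLCN KO MCD 3, FLCN KO MCD 4 or FLCN KO MCD 6 (adjusted p up to 0.126). Of 8 stellate cell markers, 5 were higher in Cre mice on MCD than on chow (29.3% of all tested genes were). In FLCN KO against Cre mice on MCD 5 were lower (8.53% of all genes). The 8 summed to medians of 291 CPM in Cre chow, 419 in Cre MCD, 333 in FLCN KO chow and 293 CPM in FLCN KO MCD livers. Of these markers Ecm1 was the most abundant and none was at 0. Macrophage markers Cd68 and Trem2 were also lower in FLCN KO mice on MCD (2 of 8; -0.73 and -1.16 on the log2 scale). The part of these cells in the differences of Abcc1, Slco3a1 and Abca9 was not tested. All 12 muscle genes were also lower, with the sums of single livers given above. Without Cre MCD 3 the differences were -0.77 for Abcc1, -0.72 for Slco3a1 and -0.77 for Abca9 on the log2 scale (adjusted p = 0.0142, 0.0109 and 0.00687, edgeR).

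**Figure D5:**
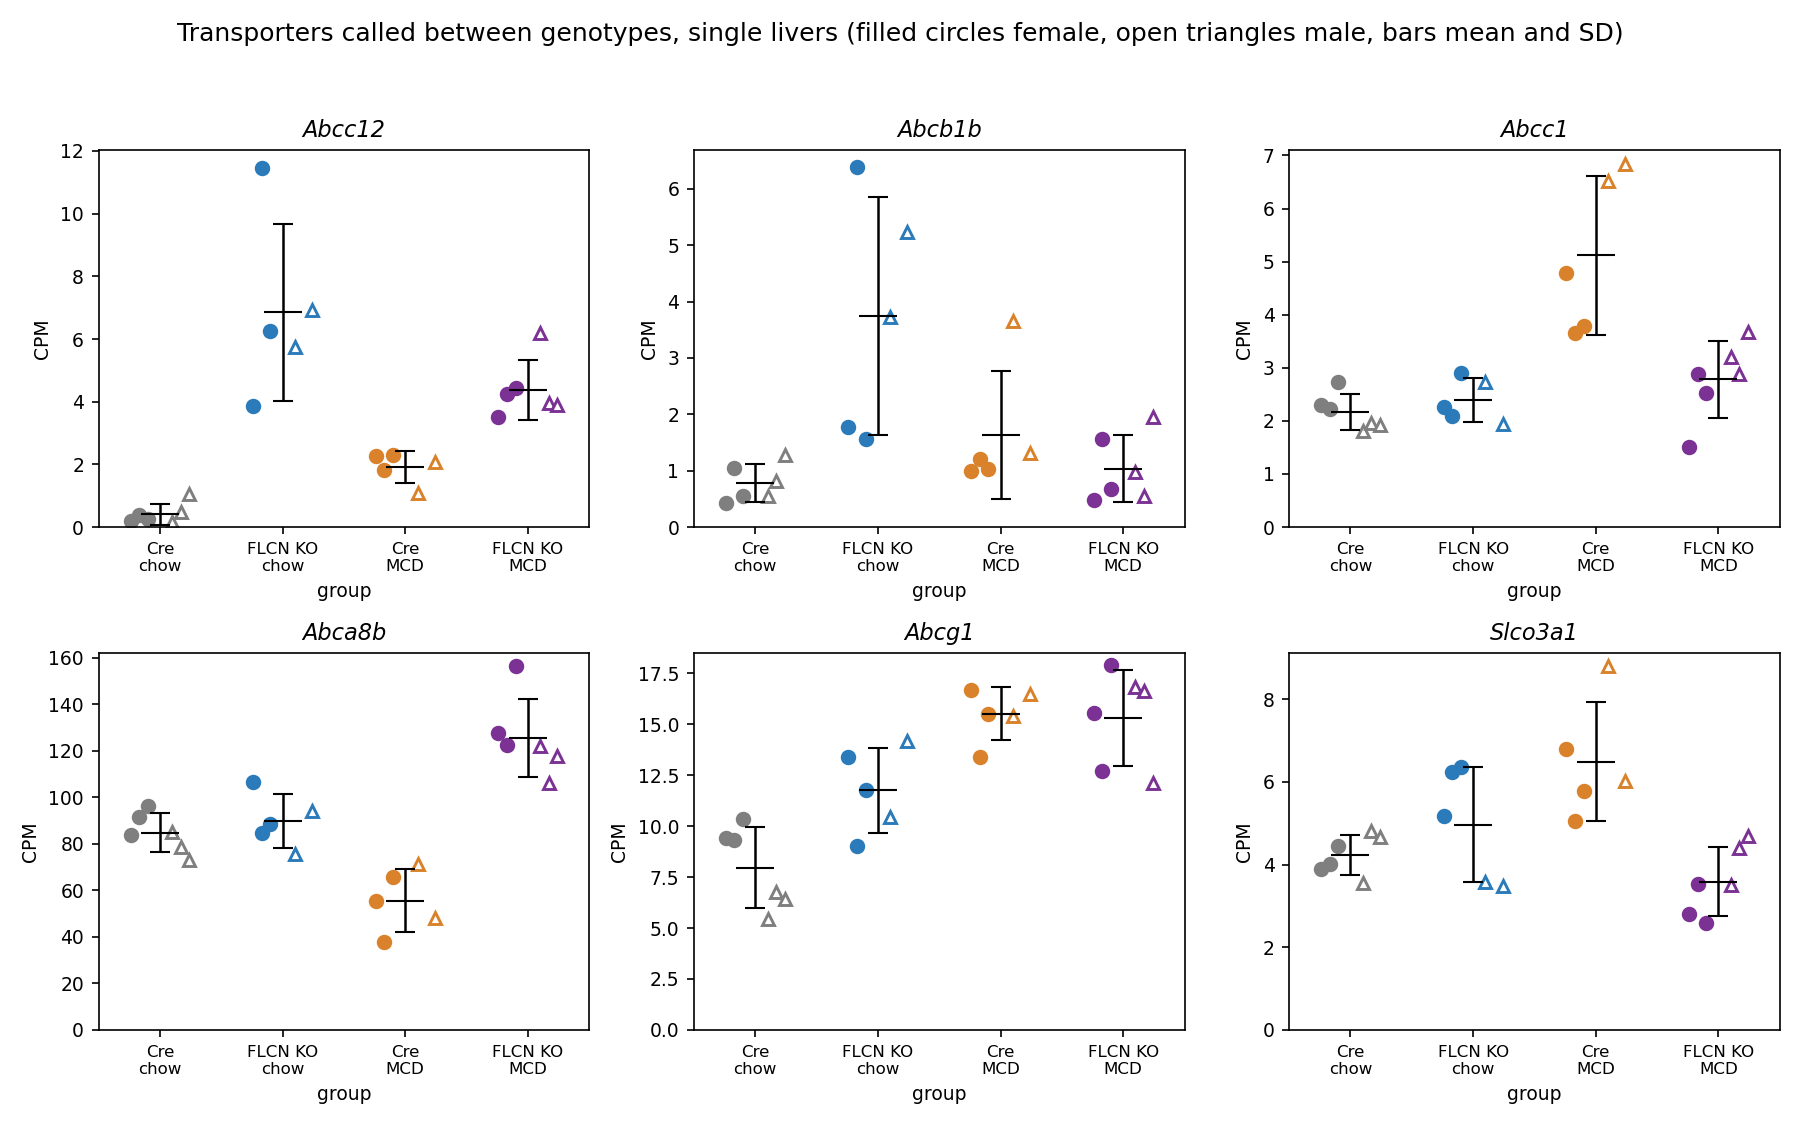
CPM of 6 transporters called between genotypes in each liver (linear axes from 0), by group on the x axis; filled circles are female and open triangles male livers, and bars give the mean and SD of each group. Abcc12 and Abcb1b are higher in all FLCN KO than in all Cre livers on chow, and Abca8b is higher and Slco3a1 lower in all FLCN KO than in all Cre livers on MCD.

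Whether the genotypes responded differently to MCD was tested as an interaction. Of 61 transporters, 3 had a more positive response in FLCN KO mice and 6 a more negative one, where 3.29% and 5.54% of all tested genes did. The positive ones were Abca8b (log2 fold change 1.09 ± 0.19, adjusted p = 0.00176), Slc10a1 (log2 fold change 1.06 ± 0.29, adjusted p = 0.0262) and Abcc6 (log2 fold change 0.84 ± 0.22, adjusted p = 0.0209; edgeR). For Slc10a1 and Abcc6 this was a smaller fall on MCD in FLCN KO than in Cre mice, and the Slc10a1 call was lost without FLCN KO Chow 4 (adjusted p up to 0.0514). Abcb1b (log2 fold change -2.91 ± 0.64, adjusted p = 0.00803) and Abcc12 (log2 fold change -2.88 ± 0.47, adjusted p = 0.00107) had the most negative values: in FLCN KO mice Abcb1b fell on MCD to between 0.487 and 1.94 CPM (median 0.827) and Abcc12 was not called (-0.65, adjusted p = 0.072), while in Cre mice Abcc12 rose (2.24) and Abcb1b was not called (1.07, adjusted p = 0.0547). Abcc1 (log2 fold change -1.01 ± 0.29, adjusted p = 0.0363) rose in Cre mice from between 1.82 and 2.74 CPM (median 2.09) to the MCD values above, and Slco3a1 (log2 fold change -1.09 ± 0.27, adjusted p = 0.0147) rose in Cre and fell in FLCN KO mice, the latter call being lost without Cre Chow 2, Cre Chow 3, Cre Chow 4, Cre Chow 5, Cre MCD 1, Cre MCD 4, FLCN KO Chow 2, FLCN KO Chow 4, FLCN KO Chow 5, FLCN KO MCD 1, FLCN KO MCD 3, FLCN KO MCD 5 or FLCN KO MCD 6 (adjusted p up to 0.143). Slc22a7 (log2 fold change -1.75 ± 0.53, adjusted p = 0.0407) fell further in FLCN KO than in Cre mice. Slc22a18 (log2 fold change -0.54 ± 0.15, adjusted p = 0.0258) fell in FLCN KO mice (-0.67) and was not called in Cre mice (-0.14, adjusted p = 0.275). Without Cre MCD 3 the interaction called 5 positive and 6 negative transporters, and without the 5 low-mapping libraries 1 and 4. Those 5 are all the chow males, so that fit sets only females on chow against both sexes on MCD. Mapping, sex and fewer livers cannot be told apart in it. The calls lost without those 5 libraries were Slc10a1 (1.10, adjusted p = 0.1), Abcc6 (0.86, adjusted p = 0.0676), Slc22a18 (-0.61, adjusted p = 0.0626) and Abcc1 (-0.87, adjusted p = 0.183; edgeR). Within females Slc10a1, Abcb1b, Abcc1 and Slc22a7 were not called, and within males Slc22a7 was the only one of the 9 called, with Abcc6 at 0.39 (adjusted p = 0.677). Each of the 9 had the same sign within females and within males. The interactions of Abcc1, Slc22a7 and Slc22a18 were lost without single livers, Abcc1 without Cre Chow 1, Cre Chow 5, Cre Chow 6, Cre MCD 1, Cre MCD 3, Cre MCD 4, FLCN KO Chow 1, FLCN KO Chow 5 or FLCN KO MCD 6 (adjusted p up to 0.0753), Slc22a7 without Cre Chow 2, Cre Chow 3, Cre Chow 4, Cre MCD 1, Cre MCD 3, Cre MCD 4, FLCN KO Chow 1, FLCN KO Chow 3, FLCN KO Chow 4, FLCN KO MCD 1, FLCN KO MCD 3, FLCN KO MCD 4 or FLCN KO MCD 6 (adjusted p up to 0.11) and Slc22a18 without Cre MCD 4 or FLCN KO Chow 4 (adjusted p up to 0.0576).

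Genes that make bile acids and regulate these transporters were examined beside them. In Cre mice 14 of these 20 genes were lower on MCD and 0 higher (of all tested genes 28.2% and 29.3%), and in FLCN KO mice 11 were lower and 0 higher (of all genes 22.5% and 22.5%), with median log2 fold changes of -0.56 and -0.46. The bile acid enzymes Cyp27a1 (-2.21 in Cre and -1.99 in FLCN KO on the log2 scale), Cyp7b1 (-4.58 and -4.22), Cyp8b1 (-1.67 and -1.26), Slc27a5 (-2.71 and -2.20) and Baat (-1.43 and -1.09) fell. Cyp7a1, the rate-limiting enzyme, was not called (-0.08, adjusted p = 0.845, and -0.70, adjusted p = 0.0761; edgeR). Nr1h4, the bile acid receptor FXR, fell in Cre mice (-0.73 ± 0.14, adjusted p = 1.30e-04) and had -0.29 ± 0.14 in FLCN KO mice (adjusted p = 0.0922), and its target Nr0b2 (SHP) had -1.38 (adjusted p = 0.00355) and -0.53 (adjusted p = 0.24). Atp8b1, a canalicular phospholipid flippase, fell in both genotypes (-0.97 and -0.63) and was higher in FLCN KO than in Cre mice on MCD (log2 fold change 0.38 ± 0.12, adjusted p = 0.0288). The interaction called 0 of 20.

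Of 12 well-known targets of the receptors that control transporter genes, 3 rose and 4 fell in Cre mice, near the 29.3% and 28.2% of all tested genes, and 1 rose and 5 fell in FLCN KO mice (all genes 22.5% and 22.5%). Cyp4a14, a PPARα target, rose in both (3.94 and 3.95 on the log2 scale), and the pregnane X receptor target Cyp3a11 (log2 fold change 1.08 ± 0.23, adjusted p = 4.25e-04) and the NRF2 target Nqo1 (log2 fold change 1.08 ± 0.33, adjusted p = 0.00794) rose in Cre mice (edgeR). In FLCN KO mice Cyp3a11 had 0.45 (adjusted p = 0.121) and Nqo1 0.01 (adjusted p = 0.983). Other NRF2 targets were not called in Cre mice (Gclc -0.10, Gstm1 -0.39, Ephx1 -0.02). Cyp1a2 (-2.11 and -2.03), Cyp2b10 (-3.33 and -3.51), Pltp (-1.56 and -1.21) and Srebf1 (-1.54 and -1.77) fell in both genotypes, and between genotypes Gstm1 alone was called, lower in FLCN KO mice on MCD (log2 fold change -0.97 ± 0.18, adjusted p = 8.83e-04).

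Markers of other liver cells are given for completeness. With MCD in Cre and in FLCN KO mice, 3 and 0 of 8 cholangiocyte markers rose and 1 and 1 fell, 3 and 1 of 8 macrophage markers rose and 1 and 3 fell, and 1 and 0 of 8 endothelial markers rose and 4 and 6 fell. Neutrophil markers rose (5 and 4 of 5 tested), of 7 tested lymphocyte markers 0 rose and 0 and 3 fell, and of 2 tested pancreas genes Cela1 fell in both genotypes and Ctrb1 rose in Cre mice. Cholangiocytes also express several of these transporters, among them Slc51b, and their markers summed to medians of 134, 185, 170 and 170 CPM in Cre chow, Cre MCD, FLCN KO chow and FLCN KO MCD livers, with Spp1 the most abundant and none at 0. Their part in the rise of Slc51b was not tested.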

How the data were processed

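Polyadenylated RNA of 22 mouse livers was sequenced, and the authors deposited 1 table of whole-number read counts per gene. Per the submitters' processing notes and the study's methods, reads were demultiplexed with bcl2fastq, trimmed with Trimmomatic, aligned to GRCm38 with STAR and counted with HTSeq. Versions, annotation and the strand setting are not given in the sources used here, so overlapping genes and close paralogs may share reads. All 22 columns matched a sample title and 0 columns were left out. Total counts per liver ranged from 13751347 to 21144388, and a gene with 0 counts may hold up to 3.

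Genes with a mean of at least 10 counts were tested with edgeR 4.0.16 (TMM, quasi-likelihood, 4 groups in one fit, two-sided, R 4.3.3), with Benjamini-Hochberg adjustment over all 14062 genes. The tests were tried on simulated data first. Exact permutation tests on log2 CPM (prior count 2) were two-sided. Alternatives were limma-voom 3.58.1, DESeq2 1.42.0, RLE factors, other count limits, only the groups compared, sex as a covariate, the replicate number as a block, and leaving out each liver or the 5 low-mapping libraries. The fit with sex, and fits within each sex, were added after the values had been seen. The members and lists were chosen with earlier results of these data known. Named genes were any tested member of the 4 main roles, and of the others the most changed in each comparison and those described by role. Others named were chosen after their values were seen. Gene positions and exon lengths are from GENCODE M21 (GRCm38), and promoter windows from RefSeq (GRCm38.p6), which matched 72 of the 90 members. Each sample is labelled a separate mouse. Some genes of these lists are counted but not reported here by name.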

Additional observations from a re-analysis of the deposited data

Results flagged for a closer look

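A single liver lay far from the rest of its group in 7 of 84 groups examined (21 transporters in 4 groups). How many such groups would arise by chance was not tested. These were Slco1a1 in Cre MCD 3 (13.3 CPM) and in FLCN KO MCD 4 (2.49 CPM), Abcb1b in Cre MCD 3 (3.66 CPM), Abcg2 in Cre MCD 5 (149 CPM), Abca8a in Cre Chow 1 (63.0 CPM), and Abcc12 in Cre Chow 6 (1.04 CPM) and in FLCN KO MCD 1 (6.21 CPM). Cre MCD 3 is the liver with skeletal muscle RNA.

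The response to MCD differed between genotypes by the interaction test for Abca8b (1.09 on the log2 scale), Slc10a1 (1.06), Abcc6 (0.84), Abcb1b (-2.91), Abcc12 (-2.88), Slc22a7 (-1.75), Slco3a1 (-1.09), Abcc1 (-1.01) and Slc22a18 (-0.54). It differed between the sexes, as males minus females, for Slc22a26 (9.61), Slc22a27 (6.92), Abcd2 (2.78), Abcb1a (2.55), Slco1a4 (2.08), Abca3 (0.88), Abcc1 (0.80), Slco3a1 (0.75), Abcb10 (-0.70) and Abcg2 (-1.45). The sex calls of Abca3, Abcc1 and Slco3a1 were lost without single livers, without Cre MCD 3 or FLCN KO Chow 1 (adjusted p up to 0.0613), Cre Chow 1, Cre Chow 2, Cre Chow 3, Cre Chow 4, Cre Chow 5, Cre Chow 6, Cre MCD 2, Cre MCD 3, Cre MCD 4, Cre MCD 5, FLCN KO Chow 2, FLCN KO Chow 3, FLCN KO Chow 5, FLCN KO MCD 1, FLCN KO MCD 3, FLCN KO MCD 4 or FLCN KO MCD 6 (adjusted p up to 0.124) and Cre Chow 4, Cre MCD 2, Cre MCD 3, FLCN KO Chow 1, FLCN KO Chow 3, FLCN KO Chow 5, FLCN KO MCD 3 or FLCN KO MCD 6 (adjusted p up to 0.0928) respectively. Without FLCN KO Chow 3 the Slc22a27 value was 7.61. The sizes for Slc22a26 and Slc22a27 are uncertain, since their chow male means lay near the floor of 3 counts.

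Among members under the count limit, Slco5a1 had 27 counts in Cre MCD 3 of 32 in all livers, and Slc22a8, an organic anion transporter of the kidney, had 8 counts in Cre MCD 3, the highest of any liver.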

How the results depend on the processing

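Of 103 called values of single transporters, DESeq2, RLE factors and sex as a covariate lost 0, and the limit of 10 counts in every library lost 0 of the 87 that passed it. limma-voom lost 5, no low-count limit 9, only the groups compared 7 of 94, and leaving out the 5 low-mapping libraries 16. Within females 17 and within males 44 were lost, in fewer livers. One changed direction: Slco3a1 with MCD in FLCN KO mice was 0.23 in males alone (adjusted p = 0.572, edgeR).

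For FLCN KO against Cre on chow, the 3 called transporters became 6 with DESeq2, 1 with at least 10 counts in every library and 1 without the 5 low-mapping libraries. On MCD the 10 became 4 in males alone. The 9 interactions became 5 without the 5 low-mapping libraries and 1 in males alone. Apart from the limit of counts, which tests fewer genes, and the smaller sets of livers, the cause was not tested. Leaving out each liver in turn gave 39 to 44 calls for MCD in Cre mice, 35 to 39 in FLCN KO mice, 2 to 6 and 7 to 14 between genotypes on chow and MCD, 7 to 11 interactions and 7 to 10 sex differences of response. The chow count was 5 without Cre Chow 2 or FLCN KO MCD 1 and 6 without FLCN KO Chow 1. The sex contrast on chow and the sex difference of response could not be fitted without the 5 low-mapping libraries, which leaves no chow males.

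Same-numbered livers did not deviate together (7 of 31 pairs correlated over 0.1, and 10 of 62 comparisons were best with the own number), so the numbers are not a pairing. With the replicate number as a block, 4 interactions were called and 12 of 103 values were lost. Other scalings moved the median of all genes by less than 0.03 on the log2 scale. All of them take the typical gene as unchanged, so their closeness cannot test that assumption. The TMM factors separated by diet. They were 0.815469 to 0.889219 in Cre chow and 1.06311 to 1.19744 in Cre MCD livers. In FLCN KO livers they were 0.918615 to 0.968608 on chow and 1.05997 to 1.1633 on MCD. Whether small called diet changes, such as that of Abca1, depend on this scaling was not tested. Genes of a few counts, such as Slc51a, are limited by depth.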
